A study of Mus musculus with 47 samples.

Results

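Tibialis anterior muscle of RE-RE mice, in which the clock gene Bmal1 (Arntl) is expressed again in the brain and in skeletal muscle fibres of an otherwise Bmal1-deficient animal, was compared with muscle of wild-type (WT) mice, both sham-operated and both collected at ZT0. The comparison used 8 of the 47 RNA-seq libraries of the series, 4 of each genotype, chosen by the genotype, surgery and time in their labels. All 8 libraries came from female C57BL/6 mice fed ad libitum. RE-RE mice are Bmal1(stopFL/stopFL) and carry 2 Cre drivers, Syt10-Cre and Hsa-Cre, each given as (-/tg). The stopFL allele keeps the gene silent until Cre removes the stop. Syt10-Cre drives Cre in the suprachiasmatic nucleus, the master clock of the brain, and in other Syt10-expressing cells. Hsa-Cre uses the human skeletal actin promoter and acts in muscle fibres, so other cells of the muscle (fibroblasts, endothelium, fat, immune cells) have no Cre and by design lack Bmal1. The controls are labelled wild-type, without Cre or stop allele, so the effects of the Cre transgenes, of the allele and of the Bmal1-deficient remainder of the body cannot be told apart here. The WT mice were 9 to 11 weeks old and the RE-RE mice 9 to 14 weeks old. The other groups of the series were the same genotypes at ZT12, adrenalectomized mice of both genotypes, and adrenalectomized WT mice given dexamethasone or adrenaline. At ZT12 the sham-operated mice were 10 to 12 (WT) and 11 to 14 (RE-RE) weeks old. Adrenalectomized WT mice were 12 to 15 weeks old at ZT0 and 13 to 17 at ZT12. Adrenalectomized RE-RE mice were 8 to 15 weeks old at ZT0 and 12 to 18 at ZT12. Comparisons between these groups thus also compare different ages.

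The molecular clock is a feedback loop. BMAL1 pairs with CLOCK or NPAS2 and switches on genes that carry E-boxes, among them the Per and Cry repressors, the nuclear receptors Nr1d1 and Nr1d2 (REV-ERB alpha and beta) and the D-box activators Dbp, Tef and Hlf. PER and CRY proteins then hold BMAL1 back, REV-ERBs repress Arntl and Npas2, and ROR receptors raise them. In muscle the loop times glucose use and sarcomere upkeep, and the brain clock reaches muscle through feeding, activity, temperature and adrenal hormones such as the glucocorticoids.

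Expression was deposited as log2 of FPKM (fragments scaled to gene length and library size) plus 0.01, so a value can be compared between genes per length. Read depth, recovered from the step of the lowest values, ran from 17.2 M to 31.1 M reads per library. WT replicate 4 shared no exact value below 1 FPKM with any library of its group and RE-RE replicate 2 shared 1, where each of the other 6 shared from 37 to 80 with 1 library of its group. Counted over the series, 7 of the 47 libraries stand apart in this way. What made the values coincide was not tested, and the libraries of a group may not be fully independent, so p-values measure the spread between these samples. Between 219 and 362 genes were listed at 0 in a WT library and between 138 and 174 in an RE-RE library; a 0 can be a failed estimate, and genes with such values are given by library and without a fold. Muscle fibre identity was checked with 10 markers (among them Ckm, Acta1, Myh4, Ttn and Des), which summed to between 54819 and 60223 FPKM in the WT libraries and between 55144 and 60703 FPKM in the RE-RE libraries. None of them passed the test (limma; 1 was higher and 1 lower at an unadjusted p under 0.05). The 12 lymphocyte and neutrophil markers were not analysed here. In whole muscle, fewer cells of a type and less RNA per cell cannot be told apart.

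Of 12000 genes tested, 2887 (24.1%) differed between RE-RE and WT at ZT0 at an adjusted p under 0.05 (limma, Benjamini-Hochberg), 1496 higher (12.5%) and 1391 lower (11.6%) in RE-RE. Most of these differences were small: the median absolute log2 change of the called genes was 0.34, 328 were at least 2-fold higher and 101 at least 2-fold lower. The median change over all tested genes was -0.01. In 1896 of the called genes the 4 RE-RE values lay wholly above or below the 4 WT values, as they did in 20.0% of all tested genes (10.3% above and 9.71% below). Leaving out the 7 libraries that stand apart took the count of called genes to 1334, and fitting the 2 groups alone took it to 1313. Below, 4 values are given in the order of replicates 1 to 4, and a log2 change is RE-RE minus WT with its standard error.

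Arntl itself did not pass the test. Its values were 14.2, 18.8, 16.2 and 18.0 FPKM in the WT libraries and 13.4, 15.2, 14.8 and 14.2 FPKM in the RE-RE libraries, and its log2 change was -0.21 ± 0.81 (adjusted p = 0.88). The lowest WT library lay within the RE-RE range, so the groups overlapped. A gene-level value does not show which Arntl exons the reads came from. At ZT12 Arntl was between 0 and 0.758 FPKM in WT and between 0 and 0.327 FPKM in RE-RE. The standard error of its change rests on the spread within all 12 groups, those near the floor at ZT12 included. It does not measure the spread of the ZT0 libraries alone, so not passing does not show equal levels at ZT0. Clock, the partner of BMAL1, read between 3.21 and 3.64 FPKM in WT and between 3.36 and 4.15 FPKM in RE-RE and did not pass the test (adjusted p = 0.48). Npas2, the other partner, was 1.59 higher on the log2 scale, with 0.506, 0.639, 0.612 and 0.674 FPKM in the WT libraries and 1.75, 1.94, 2.07 and 1.61 FPKM in the RE-RE libraries (adjusted p = 1.4e-04). Every RE-RE library was above every WT library.

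Among the repressors 3 of 8 rose, at a time when WT levels of Per2, Per3 and Ciart were below their ZT12 levels. Of the 19 clock genes tested in 4 lists (activators, repressors, REV-ERB and ROR receptors, D-box factors), 7 rose, 1 fell and 11 did not pass, so 42.1% were called beside 24.1% of all genes, and the median log2 change was 0.22. Per2, a repressor that also responds to systemic signals, read 0.290, 0.222, 0.319 and 0.491 FPKM in the WT libraries and 1.63, 0.757, 1.39 and 1.62 FPKM in the RE-RE libraries. Its change was 1.99 ± 0.27 (adjusted p = 1.4e-06), and no RE-RE value fell into the WT range. Per3 read 2.31, 1.71, 1.66 and 2.55 FPKM in the WT libraries and 3.03, 2.70, 2.28 and 3.30 FPKM in the RE-RE libraries and rose by 0.47 with overlapping groups (adjusted p = 0.016). Ciart, a repressor of CLOCK-BMAL1 also called Chrono, was listed at 0, 0, 0 and 0.991 FPKM in the WT libraries and at 1.64, 0.454, 1.49 and 1.59 FPKM in the RE-RE libraries (adjusted p = 2.9e-05). Only WT replicate 4 held a value, and it lay above RE-RE replicate 2; both stand apart as described. Per1 was listed at 0.344, 0, 0 and 0.978 FPKM in WT and 4.98, 0, 1.42 and 2.87 FPKM in RE-RE and did not pass (adjusted p = 0.065). Neither cryptochrome passed. Cry1 read between 8.01 and 10.4 FPKM in WT and between 8.34 and 11.1 FPKM in RE-RE. Cry2 read between 4.03 and 5.81 FPKM in WT and between 4.31 and 5.52 FPKM in RE-RE. Bhlhe40 and Bhlhe41 (DEC1 and DEC2), repressors that compete for E-boxes, did not pass either, with log2 changes of -0.28 and 0.10.

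Of 4 D-box factors, which bind the D-box and carry the rhythm to output genes, 2 rose. Dbp was listed at 0, 0, 0 and 11.9 FPKM in WT and 11.9, 9.97, 10.7 and 13.1 FPKM in RE-RE (adjusted p = 2.4e-06). The single WT library with a value, replicate 4, was as high as the RE-RE libraries. Tef read 25.9, 22.6, 21.3 and 22.1 FPKM in the WT libraries and 30.2, 29.3, 27.3 and 32.9 FPKM in the RE-RE libraries, a change of 0.38 ± 0.08 (adjusted p = 5.0e-04), without overlap. Hlf, with a log2 change of 0.25, and Nfil3, the D-box repressor, with 0.22, did not pass. Of the REV-ERB and ROR receptors 1 rose and 1 fell. Nr1d1 was higher in RE-RE, 29.0, 40.9, 34.2 and 24.4 FPKM in the WT libraries and 51.5, 50.7, 43.1 and 35.8 FPKM in the RE-RE libraries (log2 change 0.51 ± 0.17, adjusted p = 0.032). Nr1d2 was lower, 29.6, 21.2, 22.9 and 23.6 FPKM in the WT libraries and 23.1, 19.1, 17.6 and 19.7 FPKM in the RE-RE libraries (-0.29 ± 0.09, adjusted p = 0.024). The groups overlapped in both. Rora, with a log2 change of -0.06, did not pass. Csnk1e, a PER kinase, fell by 0.17 (adjusted p = 0.037).

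The calls of Npas2, Per2 and Tef held when any 1 library, or all libraries that stand apart, were left out, and when only the 2 groups were fitted. Those of Ciart and Dbp were lost in the fit of the 2 groups alone. That fit and several single libraries also ended the calls of Per3 (WT replicates 2 and 3, RE-RE replicate 4), Nr1d1 (WT replicates 1 and 4, RE-RE replicates 1 and 2), Nr1d2 (WT replicate 1, RE-RE replicates 2 and 3) and Csnk1e (WT replicates 1 and 4, RE-RE replicates 3 and 4). Nr1d1, Nr1d2 and Csnk1e did not pass without the libraries that stand apart.

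**Figure D1:**
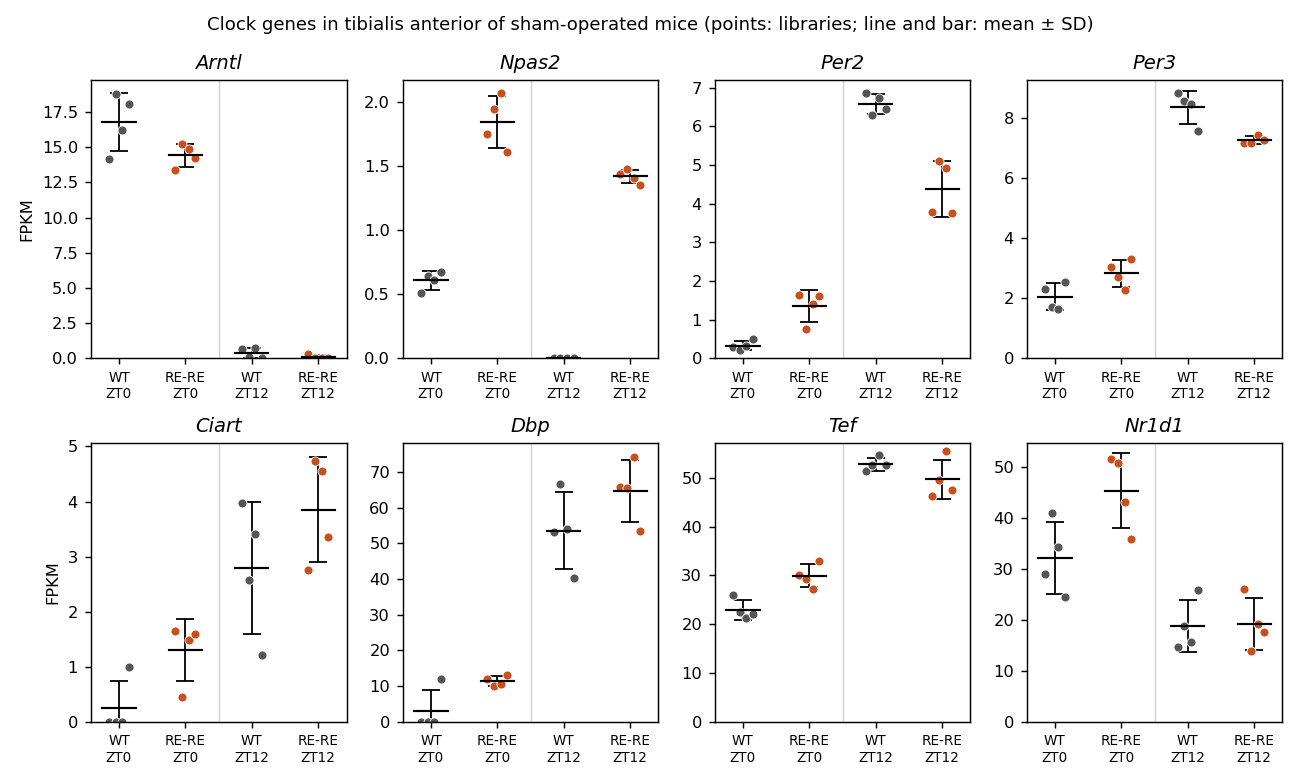
FPKM of 8 clock genes in sham-operated mice: WT in grey, RE-RE in orange, ZT0 on the left and ZT12 on the right of each panel; each point is 1 library, the line the mean and the bar the SD (n = 4). At ZT0 the RE-RE points of Npas2, Per2 and Tef lie wholly above WT, Arntl overlaps, and 3 WT libraries of Ciart and Dbp are at 0; at ZT12 Npas2 is at 0 in all 4 WT libraries.

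The promoters of 3 clock genes that rose carry the letters through which these factors act, and are shown for that reason. Sequences are from RefSeq (GRCm38.p6), 250 bases before the start of transcription, read 5′ to 3′ on the gene's strand, with the motif in capitals. Ciart lies on the minus strand (chr3:95882229-95882478) and holds 3 E-boxes, which begin 116, 58 and 44 bases before the start. Tef, on the plus strand (chr15:81802423-81802672, before the first of 2 starts listed), holds 1 E-box that begins 127 bases before it. Per3, on the minus strand (chr4:151044666-151044915), holds 2 D-boxes, 205 and 158 bases before it.
Ciart: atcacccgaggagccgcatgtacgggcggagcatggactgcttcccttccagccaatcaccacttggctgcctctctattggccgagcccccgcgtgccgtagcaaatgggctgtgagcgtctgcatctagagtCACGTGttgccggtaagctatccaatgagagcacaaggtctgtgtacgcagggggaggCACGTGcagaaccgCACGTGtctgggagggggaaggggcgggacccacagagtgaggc
Tef: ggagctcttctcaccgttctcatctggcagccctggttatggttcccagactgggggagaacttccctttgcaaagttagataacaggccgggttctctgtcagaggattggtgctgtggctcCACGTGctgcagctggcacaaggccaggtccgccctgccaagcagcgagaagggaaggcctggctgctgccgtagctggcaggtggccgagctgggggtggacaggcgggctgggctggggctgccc
Per3: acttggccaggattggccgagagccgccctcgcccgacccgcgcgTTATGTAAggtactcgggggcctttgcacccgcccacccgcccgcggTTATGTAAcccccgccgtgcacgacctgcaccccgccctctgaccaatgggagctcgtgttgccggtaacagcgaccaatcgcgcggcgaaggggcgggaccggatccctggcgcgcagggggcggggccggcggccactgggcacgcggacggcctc
The E-box was searched as CACGTG, the D-box as TTANGTAA and the ROR element as TAGGTCA, on both strands and in windows of 300 bases (250 before and 50 after the start). E-boxes occur in 7.15% of the 32851 mouse promoters in the table, D-boxes in 2.32% and ROR elements in 2.61%. These percentages count single promoters, whereas a gene was counted if any of its promoters matched, so the shares are not alike. Of the 16 clock genes with an entry, 5 hold an E-box (Per1, Cry1, Ciart, Bhlhe41, Tef), 1 a D-box (Per3) and 2 a ROR element (Arntl, Nfil3). Of the 6 with an entry that rose, 2 hold an E-box and 1 a D-box. Per1, Cry1 and Bhlhe41 hold the same letters and did not pass the test. A match describes letters, not a bound site.

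The glucocorticoid receptor carries the signal of adrenal corticosteroids to genes. Of 26 tested targets, 8 rose and none fell (30.8% called; 12.5% of all genes rose and 11.6% fell), with a median log2 change of 0.56. At an unadjusted p under 0.05 the limma counts were 12 higher and 0 lower. Fkbp5, the co-chaperone that restrains the receptor, was listed at 0 in all 4 WT libraries and at 6.50, 4.38, 4.36 and 1.01 FPKM in RE-RE (adjusted p = 3.5e-08). Pik3r1, the p85 regulatory subunit of PI3-kinase, was likewise listed at 0 in every WT library and at 3.79, 2.36, 2.80 and 2.41 FPKM in RE-RE (adjusted p = 2.3e-14). Bcl6, a transcriptional repressor, read 7.22, 10.4, 6.81 and 7.93 FPKM in the WT libraries and 14.2, 15.4, 21.5 and 12.2 FPKM in the RE-RE libraries (0.96 ± 0.20, adjusted p = 7.2e-04). Glul, glutamine synthetase, read 21.2, 25.4, 16.2 and 27.6 FPKM in the WT libraries and 42.9, 36.1, 38.0 and 49.0 FPKM in the RE-RE libraries (0.90 ± 0.20, adjusted p = 0.0015). Both genes were higher in every RE-RE library than in any WT library. Foxo1, a driver of fasting and atrophy programmes, read 2.10, 1.70, 2.26 and 2.18 FPKM in the WT libraries and 3.54, 2.14, 4.06 and 3.47 FPKM in the RE-RE libraries (0.65, adjusted p = 0.0051), with RE-RE replicate 2 inside the WT range. Cebpb, Cebpd and Klf15, transcription factors of the fasting and stress response, made up the 8. Classical targets that did not pass included Tsc22d3 (GILZ) at 0.33, Sgk1 at 0.40, Fbxo32 at 0.59, Trim63 at 0.13 and Klf9 at -0.15. Mt2 and Lcn2 were listed at 0 in all 8 libraries.

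The receptor itself, Nr3c1, read 20.5 ± 0.904 FPKM in WT and 23.2 ± 2.50 FPKM in RE-RE (SD, n = 4 each) and did not pass (adjusted p = 0.26). Fkbp4, which carries the receptor to the nucleus, rose without overlap, 50.3, 50.5, 50.8 and 49.6 FPKM in the WT libraries and 60.7, 60.4, 61.3 and 59.1 FPKM in the RE-RE libraries (0.26 ± 0.04, adjusted p = 4.4e-06). Nr3c2, the mineralocorticoid receptor, was lower without overlap, 3.74, 3.76, 3.80 and 3.96 FPKM in the WT libraries and 2.75, 2.71, 1.85 and 2.61 FPKM in the RE-RE libraries (-0.64 ± 0.11, adjusted p = 8.5e-05). Hsd11b1, the enzyme that reactivates corticosterone inside cells, was lower with overlap, between 0.621 and 0.944 FPKM in WT and between 0.418 and 0.635 FPKM in RE-RE (adjusted p = 0.0079). Leaving out the libraries that stand apart took the number of targets that rose to 10, and fitting the 2 groups alone took it to 4. The call of Hsd11b1 was lost under both and that of Foxo1 in the fit of the 2 groups. Bcl6, Glul, Fkbp4 and Nr3c2 passed under each of these and without any 1 library. Fkbp5 and Pik3r1 passed too, but neither held a value in any WT library. Leaving out libraries therefore cannot test whether those WT entries are failed estimates.

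**Figure D2:**
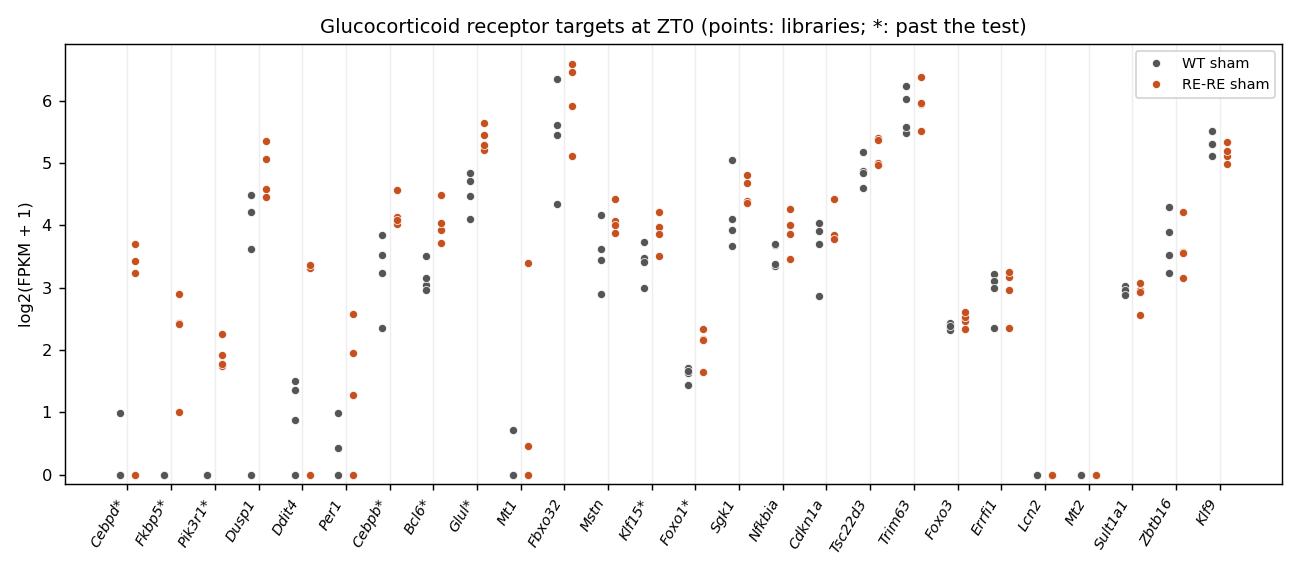
log2(FPKM + 1) of the 26 glucocorticoid receptor targets at ZT0, each point 1 library, WT sham in grey and RE-RE sham in orange (n = 4 each); an asterisk marks the 8 genes past the test. Fkbp5 and Pik3r1 sit at 0 in every WT library and above 0 in every RE-RE library, while Klf9, Zbtb16 and Sult1a1 overlap.

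Of 15 cAMP and adrenergic response genes 3 fell and none rose, so the 20.0% called were no more than the 24.1% of all genes. Of the members that fell, Pde4d, a cAMP phosphodiesterase, read 9.59, 8.34, 6.75 and 10.2 FPKM in the WT libraries and 5.19, 4.88, 5.96 and 4.85 FPKM in the RE-RE libraries (-0.73 ± 0.12, adjusted p = 1.8e-05). Irs2, the insulin receptor substrate induced by fasting signals, read 4.31, 5.60, 3.63 and 6.74 FPKM in the WT libraries and 1.69, 2.49, 3.31 and 2.19 FPKM in the RE-RE libraries (-1.07 ± 0.24, adjusted p = 0.0014). Neither overlapped. Of 13 immediate early genes 2 rose (15.4%, also below the share of all genes). Jun, a subunit of the AP-1 factor, read 14.5, 14.4, 3.07 and 12.6 FPKM in the WT libraries and 33.8, 44.2, 37.1 and 33.8 FPKM in the RE-RE libraries (1.96 ± 0.37, adjusted p = 2.0e-04), with WT replicate 3 far below its group. Of 9 receptors and enzymes for circulating hormones 2 rose and none fell (22.2% called, near the 24.1% of all genes). Dio2, which makes active thyroid hormone, was listed at 0, 0.0736, 0.161 and 0.346 FPKM in WT and 1.10, 2.92, 2.31 and 1.59 FPKM in RE-RE (adjusted p = 4.1e-06). None of 19 interferon and MHC class I genes passed the test with limma, and 0 had an unadjusted p under 0.05.

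Fibroblasts between the fibres make most of the extracellular matrix. Of 16 fibroblast and matrix genes 6 rose, 1 fell and 9 did not pass (43.8% called beside 24.1% of all genes), with a median log2 change of 1.01. Without the libraries that stand apart 2 rose and none fell. Their summed level was between 222 and 492 FPKM in the WT libraries and between 469.9 and 1005 FPKM in the RE-RE libraries, so that WT replicate 3 lay above RE-RE replicate 1. Col3a1, type III collagen, read 17.1, 33.3, 51.0 and 27.9 FPKM in the WT libraries and 50.5, 82.2, 119 and 69.3 FPKM in the RE-RE libraries (1.35 ± 0.36, adjusted p = 0.006). Mmp2, a gelatinase, read 5.53, 11.1, 17.5 and 9.65 FPKM in the WT libraries and 16.8, 30.6, 34.3 and 21.4 FPKM in the RE-RE libraries (1.30 ± 0.34, adjusted p = 0.0045). Col6a1, a collagen of the fibre's sheath, read 8.54, 11.0, 18.2 and 13.3 FPKM in the WT libraries and 18.3, 25.6, 34.4 and 22.9 FPKM in the RE-RE libraries (1.00 ± 0.25, adjusted p = 0.0033). Fbn1, the microfibril protein fibrillin, read 2.08, 2.15, 3.28 and 2.86 FPKM in the WT libraries and 3.89, 5.64, 6.70 and 4.79 FPKM in the RE-RE libraries (1.01 ± 0.20, adjusted p = 3.0e-04). The order within each group was shared by these genes: WT replicate 1 was lowest and WT replicate 3 highest of its group, and RE-RE replicate 1 lowest and RE-RE replicate 3 highest. In replicate order the WT mice were 10, 10, 9 and 11 weeks old and the RE-RE mice 14, 11, 9 and 13 weeks old. In RE-RE these values thus rose from the oldest to the youngest mouse. The part of age in the matrix values was not tested. Type I collagen did not pass on the deposited scale, where WT replicate 1 was listed at 0. Col1a1 was listed at 0, 33.2, 50.3 and 13.9 FPKM in the WT libraries and 73.5, 148, 184 and 107 FPKM in the RE-RE libraries (adjusted p = 0.068), without overlap. On log2(FPKM + 1), 10 of the 16 genes rose and 1 fell. Dcn, the proteoglycan decorin, did not pass (0.06, adjusted p = 0.82). The gene that fell was Dpt, dermatopontin, with 12.4 ± 1.27 FPKM in WT and 9.09 ± 2.55 FPKM in RE-RE (SD, n = 4 each).

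Of 8 tendon genes 2 rose (25.0%, near the share of all genes), with a summed level of between 9.97 and 51.2 FPKM in the WT libraries and between 54.1 and 123 FPKM in the RE-RE libraries. Comp was listed at 0, 0, 0.232 and 0 FPKM in WT and 0.523, 4.41, 3.38 and 0.992 FPKM in RE-RE (adjusted p = 6.1e-06). Fmod, a collagen-binding proteoglycan, was listed at 0, 5.58, 6.58 and 0 FPKM in WT and 7.77, 26.5, 23.1 and 13.8 FPKM in RE-RE (adjusted p = 0.0073). Scx, the transcription factor that defines tendon cells, did not pass, with 3.42 ± 0.930 FPKM in WT and 4.88 ± 1.12 FPKM in RE-RE (SD, n = 4 each), and neither did Tnmd at 2.38 ± 1.75 FPKM in WT and 7.91 ± 3.70 FPKM in RE-RE (SD, n = 4 each). The summed tendon level did not overlap between the groups, and Comp, Fmod, Thbs4 and Col12a1 were each listed at 0 in at least 1 WT library. On log2(FPKM + 1) 5 of the 8 rose. The part of tendon in the matrix values was not tested. Of 10 macrophage genes 3 rose, so the share called was near that of all genes. Adgre1 read between 0.189 and 0.408 FPKM in WT and between 0.496 and 0.873 FPKM in RE-RE (adjusted p = 0.004). Csf1r read between 0.838 and 1.67 FPKM in WT and between 1.68 and 2.72 FPKM in RE-RE (adjusted p = 0.011). Cd14, the last of the 3, was listed at 0 in WT replicate 1. The summed level of the 10 was between 13.4 and 19.4 FPKM in the WT libraries and between 15.8 and 26.5 FPKM in the RE-RE libraries, with overlap. Without the libraries that stand apart 1 tendon gene and no macrophage gene rose; of the calls named here Fbn1, Col6a1 and Comp were past the test there. In the fit of the 2 groups alone 4 matrix genes and 1 tendon gene rose. Fitting the 2 groups alone ended the calls of Mmp2, Fmod and Cd14, and Fmod was also lost without WT replicate 1 or 4, Cd14 without WT replicate 1 or RE-RE replicate 2.

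Among genes of the vessel wall, those of pericytes and smooth muscle were lower in part. Of 10 pericyte and smooth muscle genes 4 fell and 1 rose (50.0% called beside 24.1% of all genes). Their summed level was between 281 and 293 FPKM in the WT libraries and between 216 and 259.9 FPKM in the RE-RE libraries, without overlap. Tagln, an actin-binding protein of smooth muscle, read 18.1, 21.9, 21.5 and 20.7 FPKM in the WT libraries and 8.55, 10.4, 14.8 and 9.29 FPKM in the RE-RE libraries (-0.96 ± 0.12, adjusted p = 7.0e-07). Acta2, smooth muscle actin, read 34.3, 40.4, 34.2 and 37.8 FPKM in the WT libraries and 17.9, 22.3, 27.3 and 18.1 FPKM in the RE-RE libraries (-0.79 ± 0.14, adjusted p = 5.3e-05). Myh11, smooth muscle myosin, fell by 0.55 on the log2 scale (adjusted p = 0.0051). Rgs5, a pericyte marker, fell by 0.33 (adjusted p = 0.016). None of the 4 overlapped. The gene that rose was Pdgfrb, shared by pericytes and fibroblasts. The pericyte markers Kcnj8, Abcc9 and Cspg4 did not pass, with log2 changes between -0.07 and 0.05. Of 10 endothelial genes 3 fell, so the share called was near the 24.1% of all genes. Among them was Kdr, the VEGF receptor, with 18.3, 16.4, 17.3 and 17.9 FPKM in the WT libraries and 11.3, 13.7, 14.1 and 13.3 FPKM in the RE-RE libraries (-0.42 ± 0.13, adjusted p = 0.017). Pecam1 (-0.19) and Cdh5 (-0.15) did not pass. Pdgfb, the endothelial growth factor that recruits pericytes, read 16.8, 16.0, 17.1 and 18.7 FPKM in the WT libraries and 11.5, 10.3, 9.08 and 11.2 FPKM in the RE-RE libraries (-0.71 ± 0.11, adjusted p = 6.1e-06); it stands in the list of genes near Syt10. Without the libraries that stand apart 3 smooth muscle genes and no endothelial gene fell; the calls of Rgs5 and Kdr were lost, and Kdr was also lost without RE-RE replicate 1.

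Of 8 adipocyte genes 4 fell (50.0% called beside 24.1% of all genes). Plin1, the coat protein of fat droplets, was listed at 1.03, 1.30, 1.15 and 0.595 FPKM in WT and 0, 0.270, 0.410 and 0 FPKM in RE-RE (adjusted p = 1.6e-04). Adipoq, adiponectin, was listed at 1.88, 1.96, 1.96 and 0.677 FPKM in WT and 0, 1.44, 2.41 and 0 FPKM in RE-RE (adjusted p = 0.0096). RE-RE replicates 1 and 4 were the libraries at 0 for both, as for Cidec and Retn. They came from mice of 14 and 13 weeks, the oldest of the 8. The other RE-RE mice were 11 and 9 weeks old and the WT mice 9 to 11 weeks. The part of age in these falls was not tested. Leaving out RE-RE replicate 1 or RE-RE replicate 4 ended the calls of Adipoq and Retn, fitting the 2 groups alone ended all 4, and on log2(FPKM + 1) 2 fell. Fabp4, which endothelium also expresses, did not pass (-0.07). Of 9 nerve and Schwann cell genes 2 rose and 1 fell (33.3% called). Cnp, a myelin enzyme, rose, between 2.15 and 2.47 FPKM in WT and between 2.68 and 3.41 FPKM in RE-RE (0.40 ± 0.08, adjusted p = 3.9e-04). None of 5 erythroid genes passed with limma, and 0 had an unadjusted p under 0.05.

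**Figure D3:**
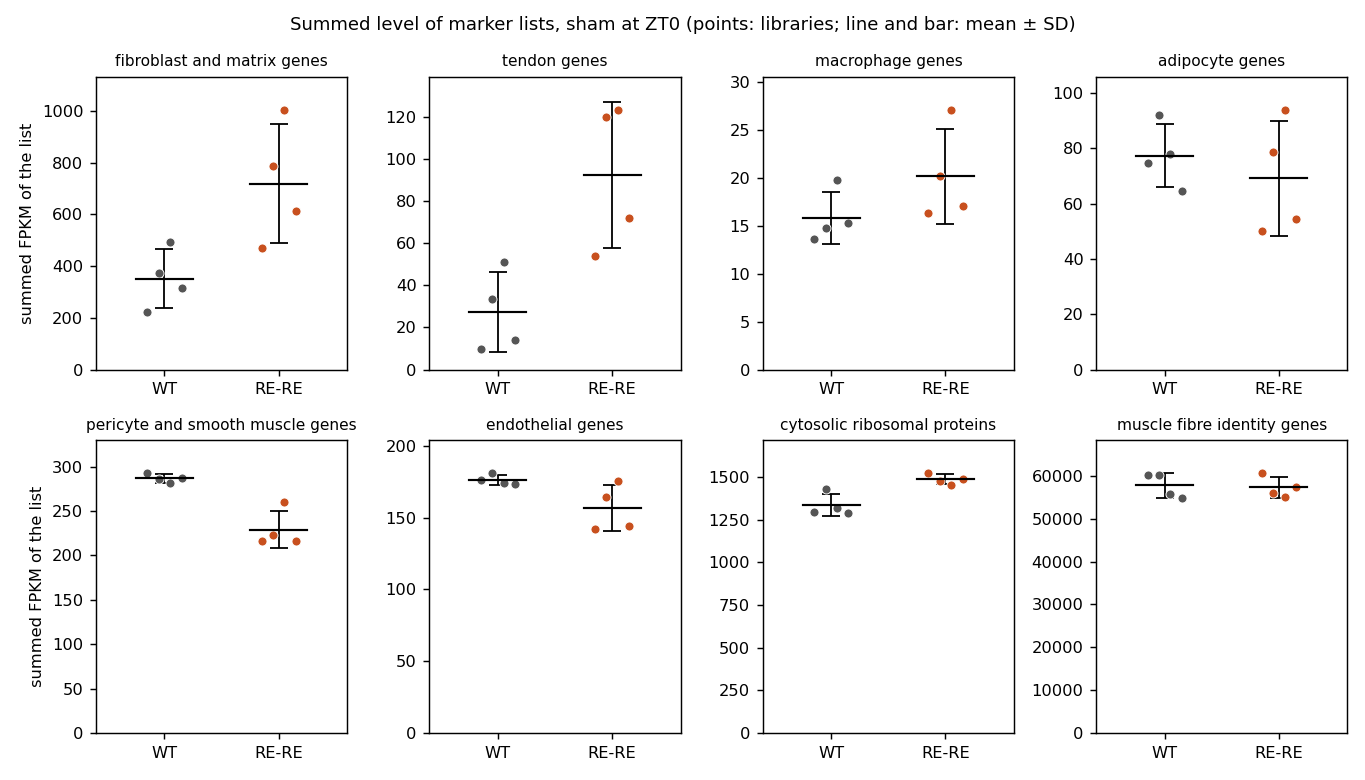
Summed FPKM of 8 marker lists at ZT0, with 1 point per library, the mean as a line and the SD as a bar (WT sham in grey, RE-RE sham in orange, n = 4 each). Pericyte and smooth muscle genes are lower in all 4 RE-RE libraries, tendon genes are higher in all 4, fibroblast genes have a higher mean with overlapping libraries, and muscle fibre identity genes coincide.

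Cytosolic ribosomal proteins, the building blocks of the translation machinery, were higher almost throughout. Of 20 tested members 17 rose (85.0%) and none fell (limma; 18 and 0 at an unadjusted p under 0.05), and the median log2 change was 0.22. In 15 of the 20 the groups did not overlap. Rpl5 read 18.7, 17.8, 16.5 and 16.6 FPKM in the WT libraries and 22.0, 21.6, 21.5 and 23.0 FPKM in the RE-RE libraries (0.34 ± 0.04, adjusted p = 7.6e-07). Rps18 read 18.3, 20.3, 21.1 and 19.6 FPKM in the WT libraries and 24.1, 25.9, 24.6 and 25.8 FPKM in the RE-RE libraries (0.34 ± 0.05, adjusted p = 5.1e-06). Rpl13 and Rpl26 rose by 0.32 and 0.30 (adjusted p = 3.5e-05 and 9.1e-05). Ribosomal protein genes have many near-identical pseudogenes, and how shared reads were assigned is not given in the sources used here, so single values are uncertain. The count was 14 without the libraries that stand apart and 14 when only the 2 groups were fitted. Eif3f, a subunit of a translation initiation factor, also rose, 36.7, 34.8, 34.0 and 35.8 FPKM in the WT libraries and 41.8, 46.2, 40.2 and 45.1 FPKM in the RE-RE libraries (0.29 ± 0.05, adjusted p = 1.7e-05). Of 18 proteasome subunits 3 (16.7%) rose by at most 0.18 on the log2 scale, and without the libraries that stand apart none did.

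Glycogen is the fibre's sugar store. Of 13 members 6 fell and 1 rose (53.8% called beside 24.1% of all genes), with a median of -0.24. Ugp2, which makes UDP-glucose, read 433, 398, 444 and 434 FPKM in the WT libraries and 323, 289, 359 and 240.1 FPKM in the RE-RE libraries (-0.51 ± 0.12, adjusted p = 0.0013). Pgm2, a phosphoglucomutase, read 1.54, 1.55, 1.40 and 1.42 FPKM in the WT libraries and 0.870, 0.974, 1.04 and 0.895 FPKM in the RE-RE libraries (-0.64 ± 0.11, adjusted p = 7.6e-05). The groups did not overlap in either. Phkg1, the catalytic subunit of phosphorylase kinase, fell by 0.25 on the log2 scale (adjusted p = 0.0035). Gys1, muscle glycogen synthase, fell by 0.24 (adjusted p = 0.0046). Pygm, muscle phosphorylase, did not pass (-0.02, adjusted p = 0.92). The member that rose was Pgm1, another phosphoglucomutase, at 279 ± 33.7 FPKM in WT and 376 ± 70.5 FPKM in RE-RE (SD, n = 4 each). Of 23 glycolytic genes 4 fell and 1 rose, and the 21.7% called were below the 24.1% of all genes. Pdha1, of the pyruvate dehydrogenase complex, read 312, 309, 318 and 329 FPKM in the WT libraries and 264, 235, 264 and 233 FPKM in the RE-RE libraries (-0.35 ± 0.06, adjusted p = 7.6e-05), without overlap. Pgk1, phosphoglycerate kinase, read 144, 154, 156 and 132 FPKM in the WT libraries and 136, 111, 113 and 112 FPKM in the RE-RE libraries (-0.31 ± 0.07, adjusted p = 0.0017), with RE-RE replicate 1 inside the WT range. In the fit of the 2 groups alone 2 glycogen genes and 2 glycolytic genes fell, none of either list rose, and the calls of Phkg1 and Gys1 were lost.

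Of 10 regulators of mitochondrial biogenesis 3 fell, so the share called was near the 24.1% of all genes. Esrrg, the estrogen-related receptor that supports oxidative fibres, read 7.53, 8.10, 9.29 and 8.99 FPKM in the WT libraries and 4.23, 4.82, 5.82 and 3.91 FPKM in the RE-RE libraries (-0.86 ± 0.14, adjusted p = 1.5e-05), without overlap. Gabpa, a nuclear respiratory factor, read 9.91, 8.57, 9.36 and 9.34 FPKM in the WT libraries and 8.02, 7.97, 8.22 and 7.83 FPKM in the RE-RE libraries (-0.21 ± 0.04, adjusted p = 4.0e-04). Perm1, a muscle regulator downstream of PGC-1, fell by 0.36 (adjusted p = 0.022), a call lost without WT replicate 3 or 4, without RE-RE replicate 2 or 4, without the libraries that stand apart and in the fit of the 2 groups. Of 25 nuclear oxidative phosphorylation genes 3 fell (12.0% called, beside 24.1% of all genes), none with a log2 change beyond -0.18, and 9 were lower at an unadjusted p under 0.05. Without the libraries that stand apart none fell. For fatty acid use 4 of 23 genes rose and 1 fell, again 21.7% called and below the share of all genes. Fabp3, the fatty acid carrier of muscle, read 157, 156, 122 and 139.9 FPKM in the WT libraries and 187, 318, 320.0 and 191 FPKM in the RE-RE libraries (0.78 ± 0.21, adjusted p = 0.0055; lost without the libraries that stand apart). Angptl4, a lipoprotein lipase inhibitor, was listed at 0, 2.44, 0 and 0 FPKM in WT and 1.36, 5.67, 7.01 and 1.59 FPKM in RE-RE (adjusted p = 1.2e-04; lost in the fit of the 2 groups). Ucp3, a mitochondrial carrier that follows fatty acid supply, was listed at 0 in RE-RE replicates 1 and 4, and its lower call (adjusted p = 0.012) was lost without replicate 1, without replicate 4 and in the fit of the 2 groups. These RE-RE replicates were the mice of 14 and 13 weeks. Hmgcs1, of cholesterol synthesis, read 15.8, 15.5, 17.0 and 15.6 FPKM in the WT libraries and 13.9, 13.0, 13.5 and 14.3 FPKM in the RE-RE libraries (-0.23 ± 0.05, adjusted p = 4.3e-04), without overlap.

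Among genes of contraction, none of 13 fast fibre genes passed with limma (1 was higher and 1 lower at an unadjusted p under 0.05). Of 12 slow fibre genes 1 rose and none fell (8.33% called, below the 24.1% of all genes). It was Casq2, the calsequestrin of slow and heart muscle, which read 17.7, 16.3, 21.2 and 18.2 FPKM in the WT libraries and 35.2, 50.0, 55.4 and 31.0 FPKM in the RE-RE libraries (1.19 ± 0.22, adjusted p = 1.8e-04). Of 12 calcium release genes 4 rose (33.3% called beside 24.1% of all genes). Jph2, which ties the calcium store to the surface membrane, read 207, 203, 188 and 185 FPKM in the WT libraries and 257, 246, 210.3 and 296 FPKM in the RE-RE libraries (0.36 ± 0.09, adjusted p = 0.0042). Ryr1, the calcium release channel, read 308, 315, 288 and 295 FPKM in the WT libraries and 367, 369, 321 and 376 FPKM in the RE-RE libraries (0.25 ± 0.07, adjusted p = 0.01). All 4 RE-RE values of both lay above WT. Without the libraries that stand apart 2 members rose. Ryr1 was lost there and Jph2 in the fit of the 2 groups.

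Of 18 muscle growth and IGF genes 5 rose and 2 fell (38.9% called beside 24.1% of all genes). Igfbp3, the main carrier of IGF1, read 2.62, 2.79, 3.88 and 3.64 FPKM in the WT libraries and 10.1, 7.26, 7.81 and 7.78 FPKM in the RE-RE libraries (1.36 ± 0.15, adjusted p = 2.9e-08). Mef2c, a muscle transcription factor, read 44.3, 42.1, 39.6 and 43.8 FPKM in the WT libraries and 65.8, 52.3, 52.0 and 57.2 FPKM in the RE-RE libraries (0.42 ± 0.08, adjusted p = 3.1e-04). Neither overlapped. Of 11 junction genes 2 rose and 3 fell (45.5% called). Musk, the kinase that organizes the neuromuscular synapse, rose with 0.243, 0.217, 0.101 and 0.498 FPKM in the WT libraries and 0.648, 0.659, 0.850 and 0.799 FPKM in the RE-RE libraries (1.64 ± 0.37, adjusted p = 0.0014). Ache, acetylcholinesterase, fell with 11.2, 11.3, 11.2 and 10.1 FPKM in the WT libraries and 8.47, 6.01, 6.01 and 9.22 FPKM in the RE-RE libraries (-0.59 ± 0.14, adjusted p = 0.0024). Of 18 atrophy and autophagy genes 3 rose and 4 fell (38.9% called beside 24.1% of all genes). Fbxo31, an F-box protein, read 25.5, 24.1, 21.5 and 25.4 FPKM in the WT libraries and 36.6, 36.4, 31.0 and 34.5 FPKM in the RE-RE libraries (0.52 ± 0.09, adjusted p = 5.8e-05). Bnip3, a mitophagy receptor, read 65.3, 59.8, 59.7 and 61.5 FPKM in the WT libraries and 50.1, 53.5, 51.8 and 46.3 FPKM in the RE-RE libraries (-0.29 ± 0.06, adjusted p = 8.9e-04). Neither overlapped. Of 8 embryonic and regeneration genes 2 rose (25.0%, near the share of all genes). Actc1, cardiac actin, also made by immature muscle, was singled out after its values were seen. It read 784, 922, 781 and 543 FPKM in the WT libraries and 91.4, 117, 205 and 198 FPKM in the RE-RE libraries and did not pass with the spread over the 12 groups (adjusted p = 0.27), although the groups did not overlap. Among 12 heat shock genes 1 passed (8.33%, below the 24.1% of all genes). It was Hspb1 (HSP27), with 35.0, 35.8, 41.6 and 34.8 FPKM in the WT libraries and 59.7, 60.5, 64.3 and 49.6 FPKM in the RE-RE libraries (0.67 ± 0.15, adjusted p = 0.0015).

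**Figure D4:**
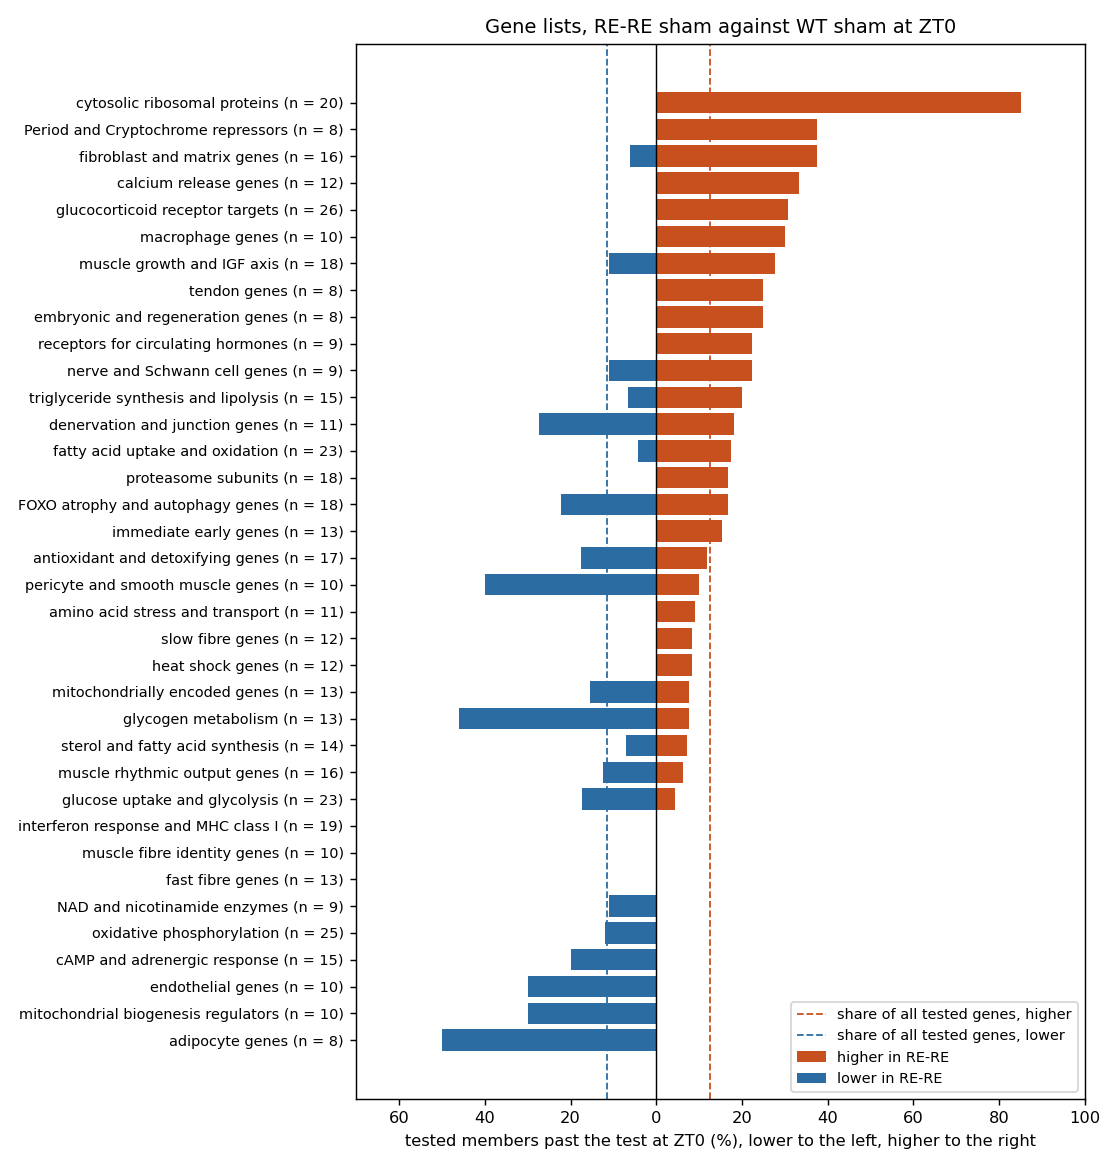
Share of tested members past the test at ZT0 in the 36 lists with at least 8 tested members (n in brackets), lower in RE-RE to the left in blue and higher to the right in orange; dashed lines give the shares over all 12000 tested genes. Ribosomal proteins reach 85.0% higher, adipocyte, glycogen and smooth muscle genes lie farthest to the left, and interferon, fast fibre and muscle identity genes have no bar.

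The largest changes with no value at 0 and no overlap were taken by a rule of size, so they describe this contrast. The rise of highest fold was Cntfr, the receptor for ciliary neurotrophic factor, with 2.00, 0.289, 0.0401 and 1.55 FPKM in the WT libraries and 4.89, 8.23, 7.56 and 11.1 FPKM in the RE-RE libraries (4.04 ± 0.59, adjusted p = 5.3e-06). Fbln7, a fibulin of the matrix, read 0.141, 0.433, 0.909 and 0.224 FPKM in the WT libraries and 1.56, 2.41, 2.21 and 2.10 FPKM in the RE-RE libraries (2.57 ± 0.35, adjusted p = 1.8e-06). Tmem132a, a membrane protein, read 0.483, 0.410, 0.970 and 1.06 FPKM in the WT libraries and 2.74, 3.77, 3.58 and 3.35 FPKM in the RE-RE libraries (2.29 ± 0.25, adjusted p = 1.5e-08). Lbp, which binds bacterial lipopolysaccharide, read between 0.311 and 0.833 FPKM in WT and between 2.19 and 3.23 FPKM in RE-RE (2.01 ± 0.29, adjusted p = 4.4e-06). Rbp7, Spon2, Map3k7cl, Pnpla3, Ccn3, Jun and the ribosomal pseudogenes Rpl39-ps and Rpl28-ps1 made up the 12 rises, all at least 1.91 on the log2 scale. Rbp7 and Spon2 did not pass without the libraries that stand apart; Rbp7 was also lost without WT replicate 1, Pnpla3 without WT replicate 1 or 4, and Spon2 without WT replicate 1 or RE-RE replicate 2 or 3.

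The deepest fall was Podn, podocan, a small proteoglycan of the matrix, with 2.36, 2.18, 2.40 and 2.72 FPKM in the WT libraries and 0.345, 0.551, 0.622 and 0.378 FPKM in the RE-RE libraries (-2.36 ± 0.24, adjusted p = 2.6e-09). Lyz1, a lysozyme, read 2.58, 1.63, 1.93 and 2.93 FPKM in the WT libraries and 0.202, 0.652, 0.718 and 0.441 FPKM in the RE-RE libraries (-2.26 ± 0.54, adjusted p = 0.0024), but near-identical Lyz2 could share its reads. Ccn2, the connective tissue growth factor, read 4.12, 5.28, 5.24 and 6.16 FPKM in the WT libraries and 0.992, 1.03, 2.65 and 0.728 FPKM in the RE-RE libraries (-2.11 ± 0.40, adjusted p = 1.8e-04). Ccn2 fell where Col3a1 and Col6a1 rose. Fmo2, a flavin monooxygenase, read 5.91, 4.93, 4.44 and 5.66 FPKM in the WT libraries and 2.65, 2.25, 1.83 and 1.48 FPKM in the RE-RE libraries (-1.37 ± 0.15, adjusted p = 2.0e-08). Tppp3, a tubulin-binding protein, read 11.5, 13.7, 15.6 and 16.4 FPKM in the WT libraries and 4.89, 6.67, 5.72 and 6.52 FPKM in the RE-RE libraries (-1.26 ± 0.14, adjusted p = 5.9e-08). Lrrc52, Ctxn3, Fgfbp1, mt-Ts1, Dixdc1, Ppp1r10 and Casr completed the 12 falls. The call of mt-Ts1 was lost without WT replicate 2 or 3 or RE-RE replicate 1, 3 or 4, and, as that of Ctxn3, in the fit of the 2 groups.

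In 6 genes all 4 WT libraries were listed at 0 and every RE-RE library held at least 3 FPKM; none showed the reverse. Gpx3, the plasma glutathione peroxidase, was listed at 108, 159, 97.8 and 124 FPKM in RE-RE (adjusted p = 3.8e-09). Pcx, pyruvate carboxylase, was listed at 29.5, 35.8, 28.1 and 35.0 FPKM (adjusted p = 1.3e-08). Ankrd1, a stress-responsive sarcomere protein, was listed at 20.4, 22.9, 35.0 and 19.4 FPKM (adjusted p = 1.7e-07), Cyfip2 at 11.0, 18.0, 11.0 and 14.6 FPKM (adjusted p = 3.4e-15) and Adamts8 at 5.83, 8.09, 15.5 and 6.27 FPKM (adjusted p = 7.8e-10). The last was mt-Co3, a subunit of cytochrome oxidase that every cell uses, at 23.8, 10.4, 23.3 and 32.0 FPKM in RE-RE, whereas mt-Co1, another subunit from the same genome, read between 17637 and 19115 FPKM in WT and between 13377 and 16614 FPKM in RE-RE. Such 0 values occurred elsewhere too: 25 genes averaging over 10 FPKM had at least 1 among the 8 libraries. Whether these 0 values are low expression or failed estimates was not tested.

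Genes within 10 Mb of Arntl or of Syt10 were called about as often as others on the same chromosome. The insertion site of Hsa-Cre was not examined. A share over a whole window does not test single genes beside a locus. Within 10 Mb of Arntl on chromosome 7, 24.51% of 102 tested genes were called, against 24.18% on the rest of the chromosome. Within 10 Mb of Syt10 on chromosome 15 it was 21.2% of 165 genes, against 24.2%. Syt10 itself was not analysed here. Gga2 near Arntl read 1.89, 1.92, 2.12 and 1.96 FPKM in the WT libraries and 2.97, 3.17, 3.52 and 3.11 FPKM in the RE-RE libraries (0.69 ± 0.07, adjusted p = 1.9e-09). Adamts20 near Syt10 read 0.275, 0.387, 0.331 and 0.297 FPKM in the WT libraries and 1.01, 1.02, 1.53 and 0.885 FPKM in the RE-RE libraries (1.73 ± 0.23, adjusted p = 1.5e-06). Among genes named above, Tef, Pnpla3 and Pdgfb also lie within 10 Mb of Syt10, and Eif3f within 10 Mb of Arntl. The part of these loci in their changes was not tested.

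The labels give the strain as C57BL/6 with no substrain. Nnt, a mitochondrial transhydrogenase that differs between C57BL/6 substrains by a known deletion, was detected in all 8 libraries at ZT0, between 7.51 and 15.0 FPKM in WT and between 6.55 and 22.1 FPKM in RE-RE, and did not pass (adjusted p = 0.81). At ZT12 Nnt was listed at 13.5, 0, 0 and 4.97 FPKM in the WT sham libraries and between 5.93 and 27.1 FPKM in RE-RE (adjusted p = 0.0012; lost in the fit of the 2 groups alone). After adrenalectomy Nnt was listed at 0 in all 3 WT libraries at ZT0 and in all 4 at ZT12. The adrenalectomized RE-RE libraries read between 8.11 and 16.2 FPKM at ZT0 and between 9.65 and 22.2 FPKM at ZT12. Wdfy1, the other gene of the substrain list, rose at ZT0 without overlap, 2.02, 3.20, 1.80 and 2.35 FPKM in the WT libraries and 4.02, 4.02, 5.27 and 5.02 FPKM in the RE-RE libraries (0.99 ± 0.33, adjusted p = 0.024). That call was lost without WT replicate 1 or 3, without RE-RE replicate 3 or 4 and without the libraries that stand apart. Wdfy1 did not pass at ZT12 (adjusted p = 0.46), and after adrenalectomy at ZT0 it was between 0.0574 and 0.344 FPKM in WT and between 2.93 and 3.72 FPKM in RE-RE (adjusted p = 1.6e-11). The part of strain background in the genotype differences was not tested.

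At ZT12 the same contrast, in other mice, called 2318 genes (19.3%), 1106 higher (9.22%) and 1212 lower (10.1%). Of the genes called at ZT0, 1145 were called in the same direction at ZT12, which is 39.7% of the ZT0 calls and 49.4% of the ZT12 calls, and 5 in the opposite direction. The contrasts share no library but share the estimate of spread. Of the 24 largest rises and falls 16 were called in the same direction at ZT12 and none in the opposite one. Podn (-3.35 ± 0.24), Tmem132a (2.80 ± 0.25), Jun (2.03 ± 0.37) and Fmo2 (-2.19 ± 0.15) were among these 16. Igfbp3 rose at ZT12 too (1.41 ± 0.15). Of the 20 ribosomal proteins 15 rose and none fell at ZT12. Of 16 matrix genes 9 rose and none fell at ZT12. Of the 19 clock genes 2 rose and 2 fell there. Per2 read between 6.30 and 6.87 FPKM in WT and between 3.75 and 5.10 FPKM in RE-RE (-0.60 ± 0.27, adjusted p = 0.11). Dbp read between 40.2 and 66.5 FPKM in WT and between 53.3 and 74.2 FPKM in RE-RE, with overlap. Tef read between 51.4 and 54.7 FPKM in WT and between 46.3 and 55.4 FPKM in RE-RE, also with overlap. Of 26 glucocorticoid receptor targets 5 rose and 1 fell at ZT12.

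The difference between the 2 genotype effects, tested directly, passed for 41 genes (0.342%), 22 with a higher RE-RE to WT ratio at ZT0 (0.183%) and 19 with a lower one (0.158%); 1601 genes had an unadjusted p under 0.05. In 36 of the 41 the ZT0 to ZT12 span of the group means was smaller in RE-RE than in WT. These genes were picked by the difference itself, and the span was not counted over all tested genes. Only 29 of the 41 had no value at 0 in the sham libraries, and such a value widens a span. The count was 159 without RE-RE replicate 3. For Per2 the difference was 2.59 ± 0.38 (adjusted p = 7.8e-05). Per2 was 6.59 ± 0.259 FPKM in WT and 4.39 ± 0.724 FPKM in RE-RE at ZT12 (SD, n = 4 each), against the ZT0 values given above. Tef differed by 0.47 ± 0.11 (adjusted p = 0.04), but no longer passed with equal library medians, without the libraries that stand apart, in the fit of the sham groups alone, or without WT replicate 2, 3 or 4 or RE-RE replicate 1, 2 or 4. Dbp, with 3 WT values at 0, passed (adjusted p = 0.011) but not on log2(FPKM + 1) or in the fit of the sham groups alone. Npas2 was listed at 0 in all 4 WT libraries at ZT12 and at 1.44, 1.48, 1.41 and 1.35 FPKM in the RE-RE libraries. It was above WT at both times, and the difference passed (adjusted p = 8.7e-12). Tspan4, a tetraspanin from a list of rhythmic muscle genes, was above WT at ZT0 (0.43 ± 0.10, adjusted p = 0.001) and below it at ZT12 (-1.01 ± 0.10, adjusted p = 5.4e-10). Of the 16 genes of that list 1 rose and 2 fell at ZT0 (18.8% called, below the 24.1% of all genes). Tspan4 was 7.10 ± 0.410 FPKM in WT and 3.53 ± 0.270 FPKM in RE-RE at ZT12, and the difference was 1.44 ± 0.13 (adjusted p = 2.6e-09).

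Pik3r1, at 0 in WT at ZT0, was 5.41 ± 2.00 FPKM in WT and 6.68 ± 1.58 FPKM in RE-RE at ZT12, and the difference passed (adjusted p = 5.0e-09). Cntfr went from 4.04 at ZT0 to -0.59 at ZT12 (difference 4.62 ± 0.84, adjusted p = 0.0029), with 13.4 ± 1.61 FPKM in WT and 9.45 ± 3.58 FPKM in RE-RE at ZT12. That difference was lost in the fit of the sham groups alone. A pair of matrix genes differed more at ZT12. Fbn1 was 1.01 higher on the log2 scale at ZT0 and 2.65 higher at ZT12 (difference -1.64 ± 0.28, adjusted p = 0.0013). Col5a3, a minor fibrillar collagen, was 1.04 and 3.27 higher (difference -2.23 ± 0.32, adjusted p = 7.8e-05). At ZT12 Fbn1 was 0.673 ± 0.167 FPKM in WT and 4.21 ± 0.455 FPKM in RE-RE. Col5a3 was 1.19 ± 0.482 FPKM in WT and 10.6 ± 1.37 FPKM in RE-RE there and 5.76 ± 1.51 FPKM in WT and 11.7 ± 1.78 FPKM in RE-RE at ZT0. Cys1, the cilium protein cystin, had log2 changes of -0.86 at ZT0 and -2.37 at ZT12 (difference 1.51 ± 0.28, adjusted p = 0.0038), a difference lost without the libraries that stand apart.

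**Figure D5:**
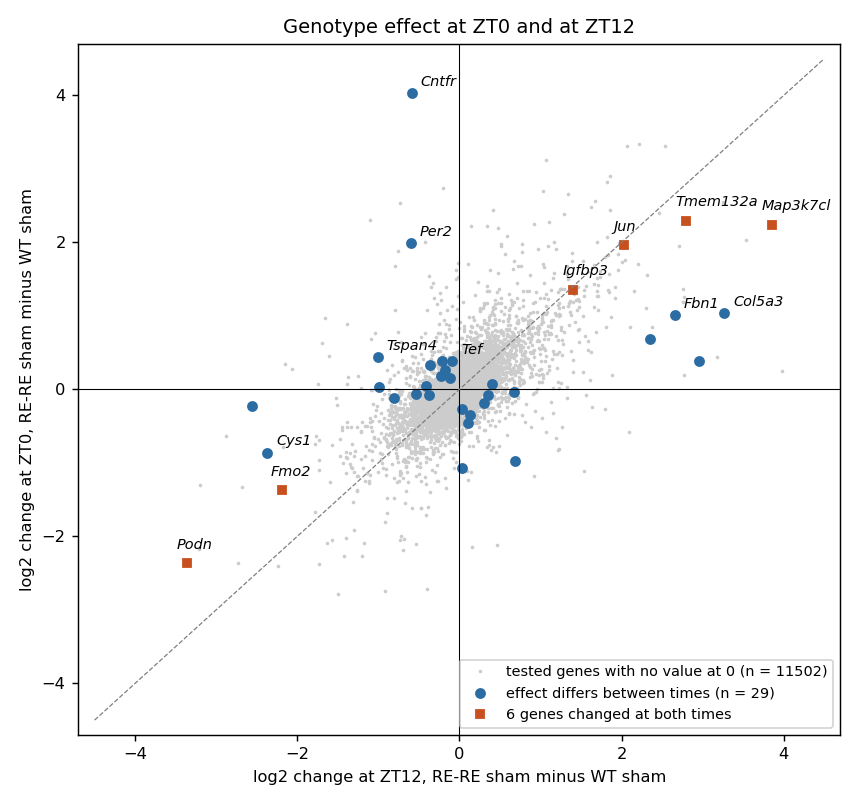
log2 change RE-RE minus WT at ZT12 (horizontal) against ZT0 (vertical) for the 11502 tested genes with no value at 0 in the 16 sham libraries; blue points are the 29 of these whose effect differed between times, orange squares 6 genes called at both times, and the dashed line marks equal change. Per2, Tspan4 and Cntfr lie upper left, above WT at ZT0 only, while Fbn1 and Col5a3 lie right of the line.

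Without adrenal glands the genotype contrast at ZT0 (3 WT libraries, all with Nnt listed at 0, and 4 RE-RE libraries, all with Nnt detected) called 4676 genes (39.0%; 20.7% higher and 18.2% lower), of which 1531 were ZT0 sham calls in the same direction and 71 in the opposite one. In all 4 genotype contrasts, sham and adrenalectomized at ZT0 and ZT12, 641 genes were called in the same direction, 335 higher and 306 lower in RE-RE. Of the 161 genes of the rules for naming, 49 were among these 641 of 12000 tested genes. They included Npas2, Fkbp5, Bcl6, Podn, Tmem132a, Igfbp3, Mef2c, Pde4d, Irs2, Acta2, Rps18, Rpl13 and Rpl26. The rules took most genes for passing at ZT0 (143 of the 161 did), which raises this count. The difference between the sham and the adrenalectomized effect at ZT0 passed for 1280 genes (10.7%), 395 with a higher (3.29%) and 885 with a lower (7.38%) RE-RE to WT ratio in sham mice, and for 275 without the libraries that stand apart. Sham and adrenalectomized mice differ in age, and with age in weeks as a covariate it passed for 924 genes. For the receptor targets named above, the difference did not pass for Fkbp5 (adjusted p = 0.92), Pik3r1 (0.75), Bcl6 (0.49) or Glul (0.30). In adrenalectomized mice at ZT0 Fkbp5 was listed at 0 in all 3 WT libraries and between 1.83 and 10.4 FPKM in RE-RE. Among the 6 smallest p-values of this difference were Plin3, a lipid droplet protein, at -4.64 ± 0.49 (adjusted p = 3.3e-08). Plin3 was 0.858 ± 0.580 FPKM in WT (n = 3) and 13.2 ± 2.79 FPKM in RE-RE (n = 4) after adrenalectomy. The others included Tacc2 at -2.44 ± 0.26 (adjusted p = 3.3e-08) and Vegfb, an endothelial growth factor, at -0.69 ± 0.09 (adjusted p = 2.9e-06). None of these 3 passed between genotypes in sham mice at ZT0, with log2 changes of -0.34, 0.04 and 0.04.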

How the data were processed

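RNA-seq of tibialis anterior muscle was measured in 47 libraries of 12 groups; the comparison uses 4 RE-RE sham and 4 WT sham libraries at ZT0. Per the submitters' processing notes, the genome build is GRCm38 and the tools listed, with no roles given, are HISAT2 2.1.0 and featureCounts 1.6.2, besides edgeR 3.30.0, Trim Galore 0.5.0 and FastQC 0.11.8; strand setting and treatment of shared reads are not given in the sources used here. The authors deposited 13500 genes as log2 values, whose lowest value (-6.64) is log2 of 0.01, so FPKM plus 0.01 was read back from them. Symbols came from the GENCODE annotation for 13446 genes.

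The 12000 genes with at least 1 FPKM in at least 3 libraries were fitted with limma 3.58.1 (R 4.3.3) on the deposited log2 scale, with 1 mean per group, a trended prior and 35 residual degrees of freedom. The tests were two-sided, Benjamini-Hochberg adjustment ran over all tested genes within a contrast, and genes were called at an adjusted p under 0.05. A fold change on this scale is that of FPKM plus 0.01. Tables were handled in Python 3.11.15. On simulated data for the ZT0 contrast over 12000 genes, 85% of genes changed by 1 on the log2 scale and 95% of those changed by 2 were recovered, with 11 unchanged genes called. The simulated noise was normal and independent between libraries, without a floor and without shared low values. These rates therefore do not give the error rate of the calls on the real data.

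Members and gene lists were chosen with earlier results of these data known. The genes named were, in each direction, the 12 with the largest change among those that passed on both the deposited scale and log2(FPKM + 1), averaged 1 FPKM or more over the 8 libraries and had no value at 0, no overlap of the groups and no predicted-gene symbol. To these were added the clock lists, up to 4 called members of each other list, up to 6 genes listed at 0 in 1 group, up to 3 called genes within 10 Mb of Arntl or Syt10, Nnt and the 6 smallest adjusted p of each difference test; not all of these are printed, and some are not reported here. Other list members named in the text were picked after their values were seen.

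Alternatives were log2(FPKM + 1), no filter, equal library medians, only the groups compared, a block for the replicate number, age as a covariate, genes without a value at 0, each library left out, and all 7 libraries of the series that stand apart left out. Same-numbered WT and RE-RE libraries at ZT0 deviated together with correlations of 0.0999, 0.00767, 0.0528 and -0.0239, so the numbers were not taken to pair them. Read depth was recovered from 10 to 17 low values per library.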

Additional observations from a re-analysis of the deposited data

Results flagged for a closer look

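In 17 of the 240 groups of 4 libraries examined (120 named genes in 2 groups each), 1 library lay far from the other 3; chance alone would mark about 1 in 20 groups. Among clock genes, Ciart was 0.991 FPKM in WT replicate 4, where the other WT libraries were at 0, and 0.454 FPKM in RE-RE replicate 2, below its group. Dbp was 11.9 FPKM in WT replicate 4, with the other 3 at 0. Nfil3 was 24.4 FPKM in RE-RE replicate 3. In the WT group, replicate 3 stood out for Jun (3.07 FPKM), Hspb1 (41.6 FPKM), Hmgcs1 (17.0 FPKM), Myh11 (8.10 FPKM) and Comp (0.232 FPKM), replicate 2 for Angptl4 (2.44 FPKM) and Rpl26 (34.0 FPKM), and replicate 4 for Ache (10.1 FPKM) and Adipoq (0.677 FPKM). In the RE-RE group, replicate 3 stood out for Ccn2 (2.65 FPKM), Nr3c2 (1.85 FPKM) and Rgs5 (136 FPKM), and replicate 1 for Pgk1 (136 FPKM).

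The genotype effect differed between ZT0 and ZT12 for 12 of the genes printed above. On the log2 scale, ZT0 minus ZT12, the difference was 4.62 for Cntfr, 2.59 for Per2, 1.44 for Tspan4, 0.47 for Tef, 1.51 for Cys1, -1.64 for Fbn1 and -2.23 for Col5a3. For Npas2 (-5.57), Spon2 (-5.23), Dbp (7.31), Pik3r1 (7.76) and Gpx3 (8.59) the fitted difference rests on values listed at 0 and is no measure of size. On log2(FPKM + 1) the differences of Spon2 and Dbp did not pass, and that of Gpx3 was lost without RE-RE replicate 2 or 4, without the libraries that stand apart and in the fit of the sham groups alone. Between sham and adrenalectomized mice at ZT0 the genotype effect differed by -4.64 for Plin3, -2.44 for Tacc2 and -0.69 for Vegfb.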

How the results depend on the processing

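The count of genes called between RE-RE and WT at ZT0 (2887) fell to 1313 when only these 2 groups were fitted and to 1334 without the libraries that stand apart, of which 1309 were among the 2887. Without 1 library of the 2 groups at a time it ran from 2122 to 2839. At ZT12 the count (2318) was 1318 without the libraries that stand apart and from 1876 to 2083 without single libraries. The difference between times (41 genes) passed for 25 genes when genes with a value at 0 were left out, and for 32 to 159 without single libraries, the highest without RE-RE replicate 3. The difference between sham and adrenalectomized mice (1280 genes) passed for 275 without the libraries that stand apart and for 989 to 1374 without single libraries. The cause was not tested; the fits with fewer groups or libraries have fewer degrees of freedom.

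With the replicate number as a block and only the groups compared, 1060 genes passed at ZT0, 1041 at ZT12, 17 for the difference between times and 940 for that between surgeries. The labels do not say whether the replicate numbers pair the libraries. Of the 143 genes of the naming rule that passed at ZT0, 140 also did on log2(FPKM + 1), 141 without a filter, 140 with equal library medians, 137 with age as a covariate, 99 without the libraries that stand apart, 93 in the fit of the 2 groups and 74 with the block; 103 passed in all 8 fits without 1 library. No change reversed in any of these. Depth limits genes near the level of 1 read, and a value listed at 0 can move a log2 change by several units.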
